A study of Mus musculus with 11 samples.

Results

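The AGGT line was the rank 4 line by total reads in lungs seeded with a pool of tagged cell lines of pancreatic ductal adenocarcinoma (PDAC), the common pancreatic cancer, in mice. Its members are all deposited barcode listings whose first 4 bases are AGGT, 4717 listings of 135360 (3.48%), with 3436 distinct sequences and 4702491 of 118983303 reads (3.95%). The line was chosen by its reads summed over both treatment groups. Just outside that place, the CCTT line at rank 3 held 5773051 reads and the AGTC line at rank 5 held 3756541. These totals chose the line and are given as a description only.

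The pool had been given intravenously to 129/Bl6 F1 mice pre-treated with vehicle or with 6-hydroxydopamine (6-OHDA), and lungs were taken 3 weeks later, per the labels. There were 6 vehicle samples and 5 6-OHDA samples, with 6436469 to 15665492 reads per library. Age, sex and 6-OHDA dose were not used here, and nothing in the labels says that each library is a separate mouse, so the p-values speak only for the variation among these 11 libraries, some of which may be technical. The labels name a pool of cell lines and a benchmark spike-in, but no listing carries the name of a line, a guide or the spike-in. Reading the first 4 bases as the tag of a cell line was therefore inferred from how the barcodes are built, and all sizes are parts of a library, not cell numbers.

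As background, 6-OHDA is a toxin that catecholamine-releasing nerve endings take up through their noradrenaline transporter, and it is used to remove sympathetic nerves. Cells injected into a vein lodge in the first capillary bed, that of the lung, where few of them found a metastasis. A random barcode that a cell copies to all its progeny lets each founding clone be counted and its size be read from one DNA sample. The number of clones reports on seeding and survival, and their size on growth.

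Each barcode had 20 bases, the identifier followed by 12 random bases that are interrupted and closed by 4 fixed G bases, and all 4717 listings of the line had the fixed bases in place. The largest colonies are shown because they carry the reads of the line, with the identifier in capitals. They were 11 different barcodes, 1 for each lung.
Vehicle sample 1: AGGTggagtctgaggggtgg
Vehicle sample 2: AGGTcacgcgggcgggcgtg
Vehicle sample 3: AGGTgcggtaaggccgctgg
Vehicle sample 4: AGGTtctgctcggtagtctg
Vehicle sample 5: AGGTtccggctgtatggccg
Vehicle sample 6: AGGTtcggaatgttaggcgg
6-OHDA sample 1: AGGTataggctggtcgattg
6-OHDA sample 2: AGGTtgtgagtggtcggtcg
6-OHDA sample 3: AGGTtgagggggttagatgg
6-OHDA sample 4: AGGTggtgacagcctgaggg
6-OHDA sample 5: AGGTcatgagagtcagcacg

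The barcodes that were colonies in the most lungs are shown next, since their sizes can be compared between lungs. No barcode of the line was a colony in more than 6 lungs.
In 6 lungs, first: AGGTggtgccaggtggaaag
In 6 lungs, second: AGGTgcggctagtgagctgg
In 6 lungs, the third: AGGTttcgggcgcggggtcg
In 5 lungs, first: AGGTgtggccggcaggttag
In 5 lungs, second: AGGTgtagactgaatgagag

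Every library was randomly thinned to 6436469 reads, the depth of the shallowest, and barcodes that kept 10 or more reads were counted as colonies. Before thinning, 485 of the 4717 listings had a single read and 324 had 2 to 9 reads, and together these held 0.0476% of the reads of the line. The remaining 3908 listings had 10 or more reads, and 3679 did so after thinning. Of the unthinned AGGT colonies, 0 to 3 per library lay 1 base from a larger one. Sizes are given in RPM, reads per 1000000 library reads, on which scale 10 thinned reads are 1.55 RPM.

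The AGGT line founded more distinct colonies in the 6-OHDA lungs on average, but the lungs of both groups overlapped and the difference did not pass the test. The 6-OHDA samples 1 to 5 held 580, 305, 395, 279 and 510 AGGT colonies. The vehicle samples held 113 at the lowest, 250 at the median and 474 at the highest. The 3 lungs of vehicle samples 1, 5 and 6 lay below every 6-OHDA lung, and 6-OHDA samples 1 and 5 lay above every vehicle lung. Means were 414 ± 130 (SD, n = 5) and 268 ± 135 (SD, n = 6), a 1.66-fold higher geometric mean with a log2 difference of 0.73 and an SE of 0.37 (exact two-sided permutation p = 0.0909, adjusted p = 0.218 over the 12 single-value comparisons of the line). The highest vehicle counts, 474 and 364, came from samples 3 and 4, which were also the deepest vehicle libraries at 15665492 and 13410390 reads. Over all lines these libraries held 7999 and 8292 thinned colonies, against 1965 to 3385 in the other vehicle libraries. With 6-OHDA the number ran from 5548 to 11472. Their reads of the GTTG line, not scaled to depth, were 2946916 and 4735842, against 253040 to 899187 in the other vehicle libraries. With 6-OHDA the GTTG reads ran from 1686419 to 5466935. What sets vehicle samples 3 and 4 apart was not tested. Without vehicle samples 3 and 4, a choice made after seeing the data, the log2 difference was 1.13 (exact permutation p = 0.0317, adjusted p = 0.0952). The 6-OHDA libraries, all kept, had 7386328 to 15427139 reads, and all counts were made after thinning. Leaving out the highest counts of 1 group raises the difference by itself.

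In edgeR's quasi-likelihood test over all identifiers, the log2 change in AGGT colony number was 0.62 with an SE of 0.50 (adjusted p = 0.263). EdgeR called 0 of 38 identifiers (0%) at an adjusted p of 0.05 and 6 (15.8%) at an unadjusted p of 0.05, and DESeq2 called 1 at an adjusted p. Without vehicle sample 4, edgeR called 8, AGGT not among them (0.73, adjusted p = 0.165). AGGT was not among the 6, with an unadjusted edgeR p of 0.214. Its change was the 35th of 38 counted from the highest, below the median of 1.06. When scaled to the other identifiers by TMM, the median moved to 0.05 and the AGGT change turned to -0.75 (edgeR adjusted p = 0.106).

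The part of all colonies that were AGGT was lower in the 6-OHDA lungs than in 5 of the 6 vehicle lungs, a difference that did not pass after adjustment. The 6-OHDA samples 1 to 5 gave 5.06, 4.80, 4.89, 5.03 and 4.92% of colonies, a narrow band. The vehicle samples gave 4.39% at the lowest, 6.61% at the median and 8.45% at the highest. Vehicle sample 4 was the exception and lay below every 6-OHDA sample. The log2 difference was -0.39 with an SE of 0.14 (exact permutation p = 0.0303, adjusted p = 0.173), and without vehicle sample 4 it was -0.50 and passed the test (adjusted exact permutation p = 0.0476). It did not pass with any other library left out alone (adjusted exact permutation p up to 0.343). In a single lung this part had a 95% Wilson interval that spanned, for example, 6.80 to 9.16% in vehicle sample 1, which is counting error over colonies only.

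The part of the reads that came from AGGT varied more between vehicle lungs than between 6-OHDA lungs. The 6-OHDA samples 1 to 5 held 3.00, 3.00, 3.16, 4.25 and 3.00% of reads. The vehicle samples held 2.35% at the lowest, 4.77% at the median and 7.01% at the highest, so that 4 of the 6 lay above and 2 below every 6-OHDA lung. The difference between the groups was not larger than this spread (log2 difference -0.38, SE 0.27, exact permutation p = 0.216, adjusted p = 0.371). Counting error was small beside it, with 95% Wilson intervals reaching at most 0.0168 points to either side. Within single libraries AGGT ranked from 2, in vehicle sample 2, to 7, in vehicle sample 5. With the AACC and GTTG lines, which took ranks 1 and 2, left out of the total, the log2 difference was -0.14 (exact permutation p = 0.602).

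In the edgeR test of reads over 104 identifiers, the log2 change of AGGT was -0.91 with an SE of 0.28 (adjusted p = 0.0680). EdgeR called 0 of the 104 (0%), with 34 (32.7%) at an unadjusted p of 0.05, AGGT among them at 0.00746. DESeq2 called 27 of the 91 it gave an unadjusted p for, also with AGGT among them (log2 change -1.06, DESeq2 adjusted p = 0.0120). Without TMM scaling the AGGT change was -0.47 (edgeR adjusted p = 0.252), and it was -0.42 over the 52 identifiers left when, in an alternative added after seeing the data, reads were summed over barcodes of 10 or more reads only (edgeR adjusted p = 0.430). Without vehicle sample 4 the TMM-scaled change of -1.01 passed the test (edgeR adjusted p = 0.0461), and 23 identifiers were called. The AGGT change did not pass with any other library left out alone (edgeR adjusted p up to 0.213).

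The median AGGT colony, as a part of the library, was smaller in the 6-OHDA lungs than in 4 of the 6 vehicle lungs, a difference that did not pass after adjustment. Their median size was 15.9, 35.4, 23.5, 38.4 and 16.8 RPM in 6-OHDA samples 1 to 5. In vehicle it was 21.0 RPM at the lowest, 54.8 at the median and 111 at the highest. Vehicle samples 3 and 4 lay within the range of the 6-OHDA lungs. The geometric mean was 2.15-fold lower in the 6-OHDA group (log2 difference -1.11, SE 0.43, exact permutation p = 0.0433, adjusted p = 0.173). The 10th percentile of AGGT colony size, which was not tested, was 2.77 to 3.26 RPM in the 6-OHDA lungs and 3.42 to 9.07 RPM in the vehicle lungs. Colony number and size are tied on this scale, since more colonies share a fixed read total. Sizes in RPM also depend on the reads taken by the most abundant lines. With the lines at ranks 1 and 2 left out of the total, the log2 difference in median size was -0.87 (exact permutation p = 0.0693, adjusted p = 0.218).

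Limma's test of mean colony size per identifier gave AGGT a log2 change of -1.11 with an SE of 0.43 (adjusted p = 0.0650). None of 30 identifiers (0%) passed an adjusted p of 0.05 in limma, 15 of them (50%) had an unadjusted p under 0.05, and the median change was -1.09. AGGT, at an unadjusted limma p of 0.0226, thus lay close to the middle of the lines. It passed without vehicle sample 3 (-1.23, limma adjusted p = 0.0402), without vehicle sample 4 (-1.36, limma adjusted p = 0.0132) and without 6-OHDA sample 4 (-1.33, limma adjusted p = 0.0483), and limma then called 14, 16 and 11 identifiers.

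AGGT colonies were also set against the other colonies of the same library, a ratio in which the read total cancels. The median AGGT colony was larger than the median of all other colonies in 10 of 11 libraries, the exception being vehicle sample 5. The ratio was 1.05, 1.69, 1.30, 1.74 and 1.19 in 6-OHDA samples 1 to 5, and 0.956 at the lowest, 1.29 at the median and 2.004 at the highest in vehicle. The groups overlapped almost fully (log2 difference 0.019, SE 0.24, exact permutation p = 0.939, adjusted p = 0.939).

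Small AGGT colonies, those with fewer than 40 thinned reads (6.21 RPM), made up 24.8, 20.3, 22.5, 20.1 and 26.9% of the colonies of the line in 6-OHDA samples 1 to 5. In vehicle they made up 7.69% at the lowest, 12.04% at the median and 20.9% at the highest, and 5 of the 6 vehicle lungs lay below every 6-OHDA lung. The difference was 9.98 percentage points with an SE of 2.39 (exact permutation p = 0.0130, adjusted p = 0.156), which did not pass the test. It was 11.6 points without vehicle sample 4, where it passed (adjusted exact permutation p = 0.0476). With any other library left out alone it did not pass (adjusted exact permutation p up to 0.343). The limit for a small colony was set in proportion to the colony minimum, so that other minimums moved both. With a colony minimum of 2 reads and its lower limit the difference was 2.69 points (exact permutation p = 0.0216, adjusted p = 0.130). With a minimum of 30 reads and its higher limit it was 8.48 points (exact permutation p = 0.126, adjusted p = 0.301).

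AGGT colonies were also counted in 4 size classes, a split made after seeing the data, and no class passed the test over all 11 lungs. Below 10 RPM there were 218, 82, 128, 76 and 189 colonies in 6-OHDA samples 1 to 5, against 18 at the lowest, 38 at the median and 117 at the highest in vehicle. At 1000 RPM or more there were 1, 3, 2, 7 and 0, against 3 at the lowest, 11 at the median and 15 at the highest. From 100 to 1000 RPM the 6-OHDA lungs were alike, with 78, 75, 76, 80 and 77 colonies, while the vehicle lungs ran from 33 to 120. On log2(colonies + 1) the difference was 1.51 below 10 RPM (SE 0.54) and -1.79 at 1000 RPM or more (SE 0.59), each with an exact permutation p adjusted over the 4 classes of 0.0693. Both passed without vehicle sample 4 (adjusted exact permutation p = 0.0476 for each). Neither passed with any other library left out alone (adjusted exact permutation p up to 0.152 for each). Colonies from 10 to 100 RPM (0.81, adjusted exact permutation p = 0.162) and from 100 to 1000 RPM (0.11, adjusted exact permutation p = 0.758) did not pass. Without vehicle samples 3 and 4, a choice made after seeing the data, every class but that from 100 to 1000 RPM passed. The differences were then 2.16 below 10 RPM, 1.33 from 10 to 100 RPM and -2.11 at 1000 RPM or more (adjusted exact permutation p = 0.0423 for each). From 100 to 1000 RPM it was 0.18 (adjusted exact permutation p = 0.603). Size classes of the other lines are not given here.

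The few largest colonies carried much of the line. Colonies of 1000 RPM or more held 20.1 to 45.5% of the AGGT colony reads in vehicle lungs and from 0, in 6-OHDA sample 5, to 28.2%, in 6-OHDA sample 4. The 10 largest colonies held 36.6 ± 9.05% (SD, n = 6 vehicle lungs) against 27.8 ± 5.34% (SD, n = 5 6-OHDA lungs). Between 10 and 43 colonies were enough to reach 50% of the AGGT colony reads of a lung. Inequality within the line differed by less than the spread between samples, with a vehicle Gini coefficient of 0.712 ± 0.028 and a 6-OHDA one of 0.714 ± 0.019 (difference 0.0028, exact permutation p = 0.909).

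The single largest AGGT colony held 4.95, 4.29, 6.83, 5.96 and 3.04% of the reads of the line in 6-OHDA samples 1 to 5. In vehicle lungs it held 3.62% at the lowest, 7.63% at the median and 11.6% at the highest. The difference of -2.33 points was within the spread (SE 1.32, exact permutation p = 0.126, adjusted p = 0.251). It was -1.49 points without vehicle sample 4 (exact permutation p = 0.230, adjusted p = 0.395) and -3.08 points without vehicle sample 3 (exact permutation p = 0.0397, adjusted p = 0.133).

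Among the 10 barcodes with the highest RPM summed over all lungs, 7 reached their highest value in a vehicle lung and 3 in a 6-OHDA lung. Vehicle gave 6 of the 11 lungs, and the same count over all AGGT barcodes is not given here, so this split is a description. Together the 10 barcodes made up 7.26% of the summed RPM of the line. The first, the vehicle sample 2 barcode AGGTcacgcgggcgggcgtg, had 5939 RPM there (52851 reads), a single read in vehicle sample 6 and none elsewhere. A read count of 0 allows up to 3 reads, which is 0.192 to 0.466 RPM depending on the library. AGGTtcggaatgttaggcgg had 3225 RPM in vehicle sample 6 and 366 in vehicle sample 1, and AGGTtctgctcggtagtctg had 3119 RPM in vehicle sample 4 and 1.70 in vehicle sample 6. These barcodes were thus large in 1 lung and far smaller or not found in the rest.

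Of the other barcodes in this group, AGGTgtggccggcaggttag differed in being a colony in 5 lungs. It had 208, 102, 2342 and 646 RPM in 6-OHDA samples 1, 2, 4 and 5, only 4.96 RPM in vehicle sample 1 and a single read in vehicle sample 5. AGGTataggctggtcgattg was large in both groups, with 1067 RPM in vehicle sample 6 and 1483 RPM in 6-OHDA sample 1. The highest barcode of the 6-OHDA lungs, AGGTggtgacagcctgaggg, reached 2536 RPM in sample 4. The largest AGGT colony of 6-OHDA sample 5, AGGTcatgagagtcagcacg, had 911 RPM there and 230 in vehicle sample 4.

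The same barcodes were often found in several lungs. Of 2689 distinct AGGT barcodes counted as colonies, 1941 (72.2%) were colonies in 1 lung, 558 in 2, 149 in 3, 33 in 4, 5 in 5 and 3 in 6. The 748 that recurred (27.8%) made up 47.2% of the 3679 colonies. Some recurred at very unequal counts, such as AGGTtctgctcggtagtctg with 41831 reads in vehicle sample 4 and 17 in vehicle sample 6. Whether a barcode found in several lungs marks the same clone was not tested. The 12 random bases allow 16777216 sequences. The number of tagged cells per barcode in the injected pool was not measured here, so colony numbers are numbers of distinct barcodes, not of founding cells. By comparison, 33.0% of the distinct CCTT barcodes and 19.3% of the distinct AGTC barcodes recurred. These percentages have the same order as the distinct colony barcodes, 6388 for CCTT, 2689 for AGGT and 1400 for AGTC. They were not corrected for that number.

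By group, 449 AGGT barcodes were colonies in lungs of both groups, 952 in vehicle lungs only and 1288 in 6-OHDA lungs only. Of the last 2 sets, 110 and 189 were found in 2 or more lungs. These counts depend on the colonies and lungs per group, with means of 268 AGGT colonies per vehicle lung and 414 per 6-OHDA lung. The same counts over all lines are not given here, so they do not mark clones particular to a treatment. Within a lung, the part of AGGT colonies that was also found in any of the other 10 lungs was 43.8, 48.5, 47.6, 50.2 and 47.1% in 6-OHDA samples 1 to 5 and 44.3% at the lowest, 49.1% at the median and 54.0% at the highest in vehicle. The groups overlapped (difference -1.64 points, SE 1.78, exact permutation p = 0.407, adjusted p = 0.610). It was -0.757 points without vehicle sample 1 and -2.78 points without 6-OHDA sample 5, the extremes when 1 library was left out, with exact permutation p of 0.675 and 0.267.

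Sharing of AGGT barcodes between lungs of the same treatment differed little from sharing between lungs of different treatment. Pairs of vehicle lungs shared 3 to 38 colonies, pairs of 6-OHDA lungs 21 to 63 and mixed pairs 6 to 54. Relative to independent draws from the 2689 barcodes seen, the median ratio was 0.594, 0.583 and 0.556. The mean log2 ratio was higher within than between groups by 0.015 (exact permutation p = 0.892, adjusted p = 0.939). The ratio takes only barcodes seen as the pool, so its level is a description.

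AGGT barcodes varied in size from lung to lung about as much as different AGGT colonies did. Over the recurring barcodes, the SD of log2 RPM within a barcode, between lungs, was 2.36, close to the 2.39 found over all AGGT colonies, and the sizes of a recurring barcode spanned a median of 6.30-fold. AGGTggtgccaggtggaaag had 179 RPM in both vehicle sample 2 and vehicle sample 3 and 1541 RPM in vehicle sample 6, against 34.0, 35.1 and 170 RPM in 6-OHDA samples 2, 3 and 4. AGGTgcggctagtgagctgg had 175 RPM in vehicle sample 2 and 65.4 RPM in vehicle sample 3, against 8.43, 721, 661 and 4.54 RPM in 6-OHDA samples 1, 2, 4 and 5. The former was larger in each vehicle lung that held it than in each 6-OHDA lung that held it, and the latter was not.

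AGGTttcgggcgcggggtcg, also found in 6 lungs, stayed below 50 RPM except in 6-OHDA sample 4, where it had 269. AGGTgtagactgaatgagag had 111, 876 and 8.75 RPM in vehicle samples 1, 2 and 3, against 190 RPM in 6-OHDA sample 1 and 202 RPM in 6-OHDA sample 5. Both thus held a wide range of sizes within a group.

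Sizes of the same barcodes were compared between lungs with an additive model of log2 RPM on barcode and lung, added after seeing the data, over the 748 recurring barcodes (61 to 254 per lung). The lung effects were -0.95, 0.05, -0.78, 0.57 and -1.03 in 6-OHDA samples 1 to 5 and -0.38 at the lowest, 0.26 at the median and 1.07 at the highest in vehicle. The difference was -0.79 with an SE of 0.38 (exact permutation p = 0.0649). Leaving out 1 library at a time gave -1.02 without 6-OHDA sample 4 (exact permutation p = 0.0286) to -0.56 without 6-OHDA sample 1 (exact permutation p = 0.210). Of the 449 barcodes found in both groups, 277 had a lower and 172 a higher mean log2 RPM in the 6-OHDA lungs, with a median difference of -0.74. These barcodes share lungs and are not replicates. Smaller sizes were not particular to AGGT, since mean colony size in limma was lower with 6-OHDA in 28 of 30 identifiers. The same barcode count for other lines is not given here.

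AGGT stood between its neighbours by rank in both number and size of colonies. In all 11 libraries it had fewer colonies than CCTT and more than AGTC, with 703 ± 276 CCTT and 117 ± 68.1 AGTC colonies in vehicle and 1142 ± 217 and 213 ± 74.0 in the 6-OHDA group (SD, n = 6 and n = 5). The median AGGT colony was larger than the median CCTT colony in all 11 libraries and smaller than the median AGTC colony in 10, with 23.5 against 23.3 RPM in 6-OHDA sample 3. Since the 3 lines were ranked by reads, these levels are not independent of the choice and were not tested.

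The change with 6-OHDA was compared between the lines within each lung. AGGT had 0.356 ± 0.051 colonies per CCTT colony with 6-OHDA against 0.371 ± 0.078 with vehicle (log2 difference -0.04, SE 0.16, exact permutation p = 0.810, adjusted p = 0.939). It had 1.96 ± 0.102 colonies per AGTC colony with 6-OHDA against 2.40 ± 0.485 with vehicle, where 4 of the 6 lungs lay above and 1 below every 6-OHDA lung. That difference did not pass (log2 difference -0.27, SE 0.12, exact permutation p = 0.0823, adjusted p = 0.218). It was -0.36 without vehicle samples 3 and 4 (exact permutation p = 0.0476, adjusted p = 0.114), and it was -0.20 both without vehicle sample 1 and without vehicle sample 2 (exact permutation p = 0.151 for each). A difference in response between AGGT and either neighbour was not detectable with these numbers of lungs.

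The random bases of the AGGT colonies were like those of the other lines. They held 22.1% A, 18.8% C, 30.8% G and 28.3% T over 2689 barcodes, against 21.9, 18.03, 30.2 and 29.9% over 44353 colony barcodes of the other lines. Within a library, the GC content of the 12 random bases and colony size had a Spearman correlation between -0.15 and 0.03 over 113 to 580 colonies, which share one library and are given as a description.

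A few AGGT barcodes shared their random part with a barcode of another identifier in the same library. There were 29 such pairs. In 16 the other barcode had a single read, and in 9 both had 10 or more reads, 5 of them within 2-fold of each other. The pairs shown differ only in the identifier.
Vehicle sample 2, 4642 reads: AGGTagcgtggggtggctgg
Vehicle sample 2, 4611 reads: AAGTagcgtggggtggctgg
Vehicle sample 3, 194 reads: AGGTtcggtaagggcggagg
Vehicle sample 3, 211 reads: AAGTtcggtaagggcggagg
Vehicle sample 4, 7033 reads: AGGTtggggaagaggggtgg
Vehicle sample 4, 5965 reads: GTTGtggggaagaggggtgg

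The AAGT identifier lies 1 base from AGGT, and its pairs had nearly equal reads. In vehicle sample 2 the AAGT barcode accounted for 4611 of 4648 AAGT reads. The pair of AGGT and GTTG from vehicle sample 4 was found again in 6-OHDA sample 1, with 556 and 1062 reads. What joins the 2 members of a pair was not tested.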

How the data were processed

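Spike-in cells were added to weighed lung tissue, and barcodes were read after a 27-cycle PCR on 32 µg of its DNA, per the labels' protocols. The values are raw read counts per barcode cluster, deposited by the authors in 1 table per sample; the clustering tool is not given in the sources used here. Groups and sample numbers came from titles. Listings with an undetermined base, 4 of 135364, were dropped. Thinning used a fixed seed; 20 repeats moved the log2 AGGT colony number by an SD of at most 0.0111. Without molecular identifiers, reads are not molecules, and intervals and floors cover counting error only.

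Single values were compared by exact permutation of group labels (462 arrangements, smallest p 0.0043) with Benjamini-Hochberg adjustment over 12 comparisons. The SE given with edgeR was the size of the log2 change over the square root of F. EdgeR used equal library sizes for colonies (identifiers with 5 or more colonies in a sample) and TMM for reads (leaving out identifiers under 10 reads in most samples of both groups); limma used identifiers with 5 or more colonies in at least 3 samples per group. Scripts were tested on simulated data. The threshold was an adjusted p of 0.05. Named barcodes were the 10 highest by summed RPM, the largest of each sample and the 5 found in the most samples. The line and all lists were chosen with earlier results of these data known. The tools were R 4.3.3 with edgeR 4.0.16, limma 3.58.1 and DESeq2 1.42.0, and Python 3.11.15 with scipy 1.17.1, pandas 2.3.3 and numpy 2.4.6.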

Additional observations from a re-analysis of the deposited data

Results flagged for a closer look

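Of 32 groups of values examined, 2 held a sample far from the rest of its group, where about 1.6 would be found at the nominal rate of 1 in 20. AGGT made up 4.25% of reads in 6-OHDA sample 4, against 3.00 to 3.16% in the other 6-OHDA samples. That lung also had the largest AGGT median colony of its group and 7 AGGT colonies of 1000 RPM or more, against 0 to 3 in the other 6-OHDA samples. The Gini coefficient of AGGT colony sizes was 0.658 in vehicle sample 1, against 0.709 to 0.737 in the other vehicle samples.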

How the results depend on the processing

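Colony number kept its direction under all 18 alternatives run (log2 difference 0.43 to 1.13), share of reads under 16 (-0.55 to -0.14), share of colonies under 19 (-0.56 to -0.30) and median size under 19 (-1.55 to -0.65). Small colonies ran from 2.69 points (minimum of 2 reads, which also lowered the limit for a small colony) to 12.8 (without vehicle samples 3 and 4). These differences turned sign: relative median size without thinning (-0.027) and with a minimum of 2 reads (-0.67), Gini coefficient with a minimum of 30 (-0.0192) and 100 reads (-0.0432), overlap with a minimum of 30 (-0.11) and 100 (-0.13) and without vehicle samples 3 and 4 (-0.050), recurring colonies with a minimum of 100 (0.519 points), and colonies per CCTT colony with a minimum of 100 (0.20) and without vehicle samples 3 and 4 (0.029). TMM turned the edgeR change of AGGT colonies to -0.75. Identifiers called numbered 1 (DESeq2) and 2 (no filter) for colonies, 27 (DESeq2) for reads and 3 (minimum of 30) for limma. The cause was not tested.

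With 1 library left out at a time, share of colonies ran from -0.50 to -0.31, small colonies from 8.92 to 11.6 points, the part held by the largest colony from -3.08 to -1.49 points, recurring colonies from -2.78 to -0.757 points, colonies per AGTC colony from -0.35 to -0.20, sizes of the same barcodes from -1.02 to -0.56, relative median size from -0.080 to 0.13, Gini from -0.0079 to 0.0081, colonies per CCTT colony from -0.15 to 0.036, overlap from -0.027 to 0.089 and colonies of 100 to 1000 RPM from -0.11 to 0.25. Calls ran from 0 to 8 for edgeR colonies, 0 to 23 for edgeR reads and 0 to 16 for limma.

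Samples of equal replicate number had correlations of deviations over 16 identifiers of -0.27 to 0.43. With so few identifiers these values cannot settle whether equal numbers share a batch. With a replicate block the log2 difference was 0.70 for colony number, -1.07 for median size, -0.80 for sizes of the same barcodes and -0.055 for relative median size, with a smallest possible exact permutation p of 0.0625, and edgeR and limma called 0 identifiers. Overlap has no block value, and colonies below 10 RPM none at a minimum of 100 reads. Depth limited colonies under 1.55 RPM, which were not counted.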

Other observations

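Of the 809 AGGT listings under 10 reads, 194 (24.0%) carried a barcode with 10 or more reads in another library, and 85 (10.5%) a barcode with 1000 or more reads in another library. With a correction for clones missed in all 11 lungs (Chao2, from the numbers of barcodes found in 1 and in 2 lungs), the pool would hold at least about 5758 AGGT barcodes, of which the 2689 found are 46.7%. The same estimate was 12829 for CCTT and 4245 for AGTC. Barcodes need not be equally likely to be found, and unequal clones in the pool make the estimate a lower bound.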
